A study of Mus musculus with 4 samples.

Results

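The genes described here are 34 genes of the unfolded protein response and the integrated stress response, whose transcripts were counted in RNA sequencing libraries of irradiated mouse intestinal organoids. They were taken by symbol from the 51509 genes listed in the deposited count table and fall into 4 branches: 6 sensors and transducers, 14 endoplasmic reticulum (ER) chaperones and folding enzymes, 6 genes of ER-associated degradation, and 8 genes of the branch downstream of the transcription factor ATF4. All 34 passed the filter on low counts. The organoids, epithelial cultures that grow from intestinal tissue, came from wild-type C57BL/6 mice of 8 to 12 weeks. Organoids given SGC-CBP30, an inhibitor of the bromodomains of the acetyltransferases CBP and p300, were compared with organoids given vehicle, with 2 libraries per group. Every culture received 8 Gy of irradiation and RNA was taken 36 hours later, so both groups share the irradiation and no unirradiated group was analysed here. In SGC-CBP30 replicate 2 the treatment label reads SGC-CBP31, and its title and the number of samples stated per group placed that library with the other. Nothing in the labels says that replicates came from separate cultures or animals, so the p-values measure only the spread between these libraries, which may be technical.

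The ER folds and exports secreted and membrane proteins, and a load of unfolded protein in its lumen is read by 3 classes of sensor in its membrane. IRE1 splices the Xbp1 transcript, ATF6 is cut in the Golgi to release a transcription factor, and PERK phosphorylates the initiation factor eIF2, which lowers general translation while raising translation of ATF4. GCN2 phosphorylates the same factor when amino acids run short, so ATF4 target genes answer to ER stress and to amino acid shortage alike. In the intestine these pathways are known for their role in Paneth and goblet cells, whose secretory load is high. Splicing of Xbp1, cleavage of ATF6 and translation of Atf4 cannot be read from counts per gene, and in bulk samples fewer cells of a type and less RNA per cell cannot be told apart.

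The libraries held 16433117 to 18087250 counts, and 20980 to 21933 genes were detected in each. At this depth 3 counts, taken as a floor, equal 0.166 to 0.183 CPM, which are counts corrected for library size, and the 34 genes held 106 to 38299 counts each over the 4 libraries. Such a floor covers counting error only. Mitochondrial transcripts took 5.25% and 5.99% of counts in SGC-CBP30 libraries, against 6.55% and 6.73% in vehicle libraries, and whether this moves any value below was not tested. Of the genes that encode the inhibited proteins, Ep300 was higher under SGC-CBP30, with a log2 fold change of 0.24 ± 0.067 (SE, edgeR adjusted p = 0.00688), a call lost without either vehicle library (adjusted p = 0.174 and 0.0649, with a range over the alternatives of 3.61e-06 to 0.174). Crebbp had a log2 fold change of 0.16 ± 0.081 (edgeR adjusted p = 0.154). With library totals as the scale it passed the threshold as higher (0.23, edgeR adjusted p = 0.0322). Without SGC-CBP30 replicate 1 its log2 fold change was 0.26.

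In SGC-CBP30 organoids the ATF4 branch held 3 genes that rose (Chac1, Asns and Phgdh), while 5 ER chaperones and folding enzymes fell (Canx, Manf, Dnajb9, Hsp90b1 and Hyou1). Among the sensors, the IRE1 genes Ern1 and Ern2 fell and the GCN2 gene Eif2ak4 rose, and in ER-associated degradation only Herpud1 passed the threshold, falling. In all, 4 genes rose and 8 fell at an edgeR adjusted p under 0.05, which is 35.3% of the 34, against 30.0% of the 14684 genes tested. The share of the 34 that changed thus lay near the share over all genes. By direction, 13.6% of all tested genes rose and 16.3% fell. With library totals as the scale, 8 of the 34 rose and 6 fell. Over all tested genes, 2907 rose and 1924 fell on that scale, against 2004 and 2397 on the TMM scale used throughout.

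The sizes of these changes were small. Folds of the 12 called genes ran between 1.14 and 1.66, and 1 of the 34 genes (Chac1) differed by at least 1.5-fold (2.94%, against 19.4% of all tested genes). The median size of the log2 fold change was 0.12 over the 34 genes and 0.25 over all tested genes. The 34 genes were also measured more closely, with a median SE of 0.078, against 0.13 for all genes. The 2 groups did not overlap for 22 of the 34 genes (64.7%), 11 higher and 11 lower, against 63.1% of all tested genes (32.1% higher and 31.0% lower). In the fits that left out 1 library in turn, 6 of the 12 called genes kept their call each time: Ern1, Canx, Dnajb9, Manf, Asns and Phgdh.

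**Figure D1:**
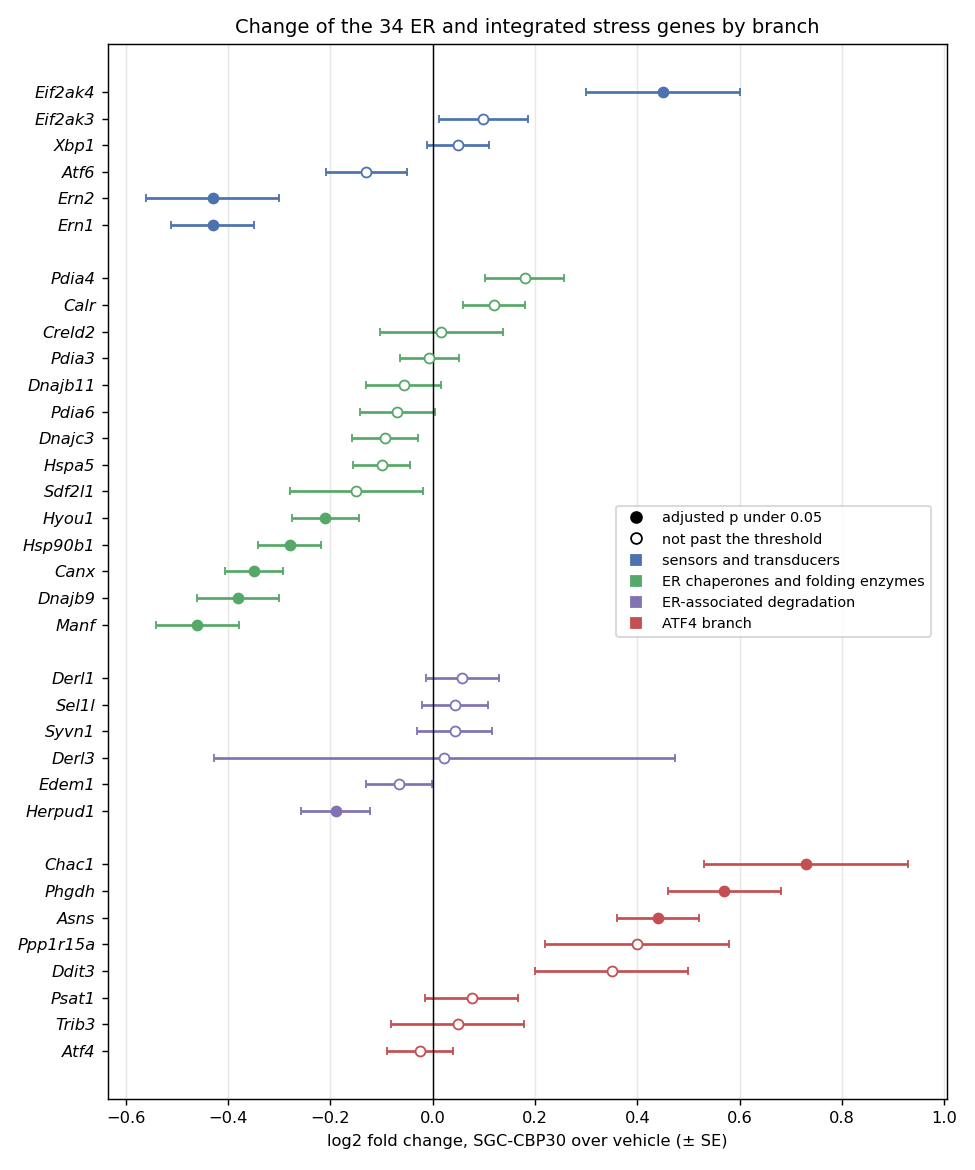
Log2 fold change, SGC-CBP30 to vehicle (horizontal axis), for each of the 34 genes, grouped by branch; bars are 1 SE and filled points have an edgeR adjusted p under 0.05. The filled points of the chaperones lie left of 0 and those of the ATF4 branch lie right of 0.

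Between genes, levels can be compared only per length, in FPKM (reads scaled to gene length and library total, as deposited), here as the mean over the 4 libraries. Chaperones had the highest levels, led by the lectin chaperone Calr at 179 FPKM, the disulfide isomerase Pdia3 at 148 FPKM and the main ER chaperone Hspa5 (BiP) at 132 FPKM. Atf4 at 91.3 FPKM and Xbp1 at 68.9 FPKM stood well above the sensor genes, which lay between 1.96 FPKM for Eif2ak4 and 9.51 FPKM for Atf6. The lowest of the 34 was Derl3, a membrane protein of ER-associated degradation, at 0.767 FPKM. In FPKM, Ern1 and Ern2 were of similar level, with an Ern1 to Ern2 ratio of 1.27 and 1.38 in SGC-CBP30 libraries, against 1.25 and 1.41 in vehicle libraries. The groups therefore overlapped in that ratio.

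**Figure D2:**
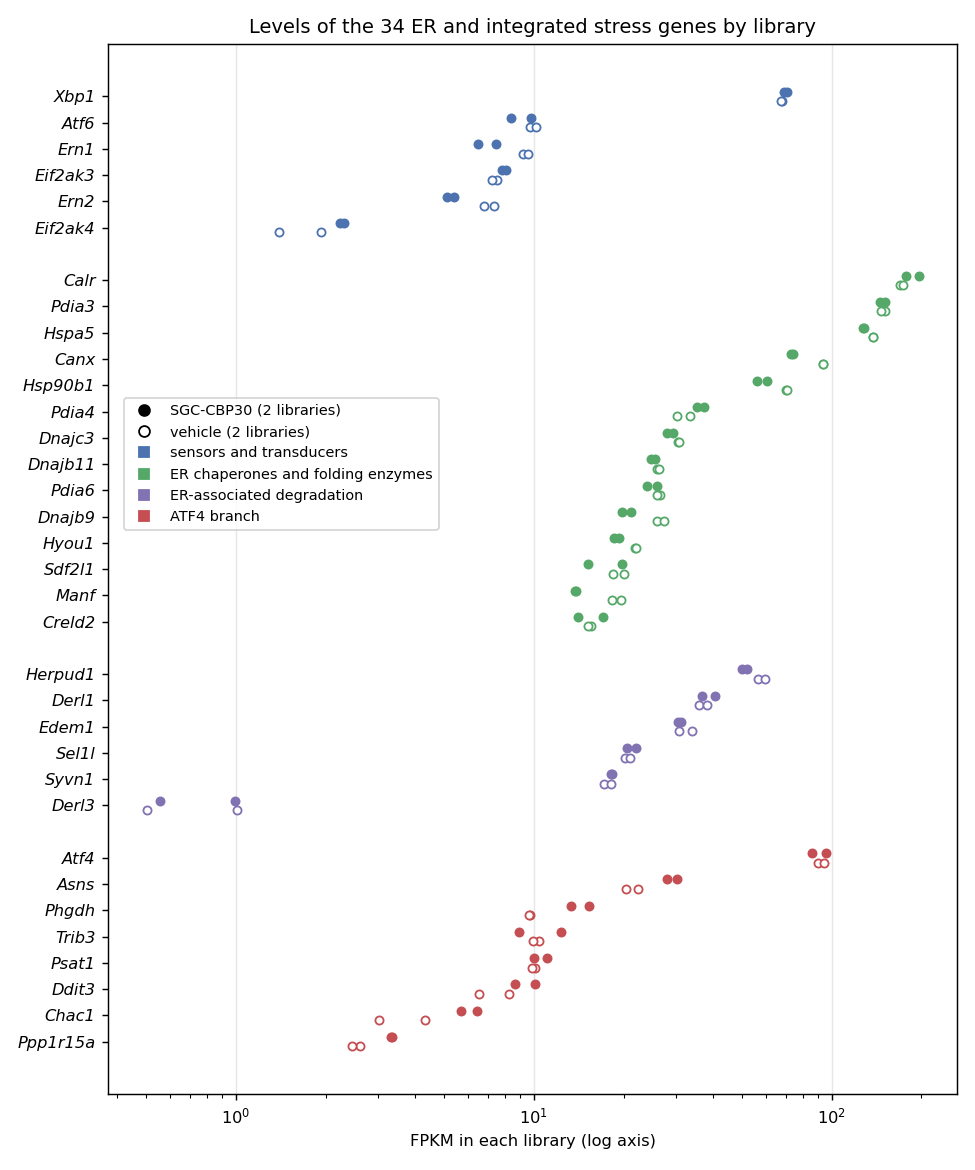
Level of each of the 34 genes in every library, in FPKM on a log axis, with SGC-CBP30 libraries as filled and vehicle libraries as open points and the branches in colour. Levels span from under 1 FPKM for Derl3 to over 100 FPKM for Calr, Pdia3 and Hspa5.

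Of the sensors and transducers, Ern1, which encodes the ubiquitous IRE1 alpha kinase and endonuclease (GRCm38, chromosome 11, 106394650 to 106487852, minus strand), changed most clearly. Ern1 had 53.5 and 61.1 CPM in SGC-CBP30 libraries, against 75.8 and 78.7 CPM in vehicle libraries. Both SGC-CBP30 libraries were below both vehicle libraries, with a log2 fold change of -0.43 ± 0.081 (SE, edgeR adjusted p = 0.000228). Ern2 encodes IRE1 beta, a form found in mucosal epithelia such as gut and airway (chromosome 7, 122169893 to 122186207, minus strand). Ern2 had 15.2 and 16.1 CPM in SGC-CBP30 libraries, against 21.9 and 20.2 CPM in vehicle libraries, and fell by 0.43 ± 0.13 on the log2 scale (adjusted p = 0.012). Left out in turn, vehicle replicate 1 ended this call (adjusted p = 0.114), as did DESeq2 (0.0551), in a range over the alternatives of 0.00536 to 0.114.

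Eif2ak4, the gene of the amino acid sensor GCN2 (chromosome 2, 118388618 to 118475234, plus strand), was the sensor that rose. Its level was 16.7 and 17.3 CPM in SGC-CBP30 libraries, against 10.5 and 14.4 CPM in vehicle libraries, where the vehicle replicates themselves lay apart. The log2 fold change was 0.45 ± 0.15 (edgeR adjusted p = 0.0249). Without vehicle replicate 1, the lower of the vehicle libraries, it was 0.24 (adjusted p = 0.393), and DESeq2 gave an adjusted p of 0.108, so this call rests on that library. The adjusted p ranged over the alternatives between 0.00183 and 0.393.

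The other 3 sensors and transducers did not pass the threshold. Eif2ak3, the gene of PERK, had 47.3 and 48.7 CPM under SGC-CBP30, against 45.8 and 43.9 CPM under vehicle (log2 fold change 0.099 ± 0.087, adjusted p = 0.438). It shares 485 exon bases with an opposite-strand gene of few counts. Of the 34 genes, 10 share exon bases with another gene, and 485 was the most for any single pair of genes. Atf6 had 77.9 and 90.8 CPM under SGC-CBP30, against 90.2 and 94.3 CPM under vehicle, so its groups overlapped (log2 fold change -0.13 ± 0.079, adjusted p = 0.244). Without SGC-CBP30 replicate 2, Atf6 passed the threshold as lower (adjusted p = 0.00559, in a range of 0.00559 to 0.849). Xbp1, whose transcript IRE1 splices, had 231 and 226 CPM under SGC-CBP30, against 222 and 220 CPM under vehicle, a log2 fold change of 0.049 ± 0.061 (adjusted p = 0.602). Summed over the branch, sensors and transducers had 442 and 460 CPM in SGC-CBP30 libraries, against 466 and 472 CPM in vehicle libraries.

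Among the 14 ER chaperones and folding enzymes, 5 fell and none rose by edgeR, so 35.7% were called. Of all tested genes 30.0% were called in either direction and 16.3% fell. In this branch 1 gene was higher at an unadjusted p under 0.05 (Pdia4) and none was higher by DESeq2. With library totals as the scale, 4 fell and 2 rose. The 2 were Calr (log2 fold change 0.19, edgeR adjusted p = 0.0129) and Pdia4 (0.26, adjusted p = 0.0128). The number with a negative log2 fold change was 8 on that scale, against 11 by the TMM scale. Canx, a membrane-bound lectin chaperone of glycoproteins (chromosome 11, 50293961 to 50325673, minus strand), had 344 and 349 CPM in SGC-CBP30 libraries, against 441 and 439 CPM in vehicle libraries. The replicates of either group were nearly equal, and the log2 fold change was -0.35 ± 0.057 (edgeR adjusted p = 4.5e-05). Calr, its soluble relative in the same lectin cycle, was not called, with 567 and 514 CPM under SGC-CBP30, against 494 and 501 CPM under vehicle (0.12 ± 0.06, adjusted p = 0.145). Per base of gene length, Calr stood 2.69 and 2.40 times above Canx in SGC-CBP30 libraries, against 1.83 and 1.86 times in vehicle libraries. The groups could not overlap in this ratio, because Calr was higher and Canx lower in both SGC-CBP30 libraries than in either vehicle library. Without SGC-CBP30 replicate 2, Calr passed the threshold as higher (adjusted p = 0.000106, in a range over the alternatives of 0.000106 to 0.536).

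Manf, a small ER protein that binds BiP and can be secreted as a trophic factor (chromosome 9, 106838312 to 106891979, minus strand), fell most among the chaperones and folding enzymes. It had 49.3 and 48.6 CPM in SGC-CBP30 libraries, against 65.0 and 69.3 CPM in vehicle libraries (log2 fold change -0.46 ± 0.081, edgeR adjusted p = 0.000104). Exons of Manf overlap those of genes on the opposite strand, by 146 bases for Dcaf1, and strand use in counting is not given in the sources used here. Dnajb9, a J protein that brings BiP to the IRE1 lumenal domain and to misfolded clients (chromosome 12, 44205559 to 44210326, minus strand), had 50.6 and 54.2 CPM under SGC-CBP30, against 66.5 and 70.1 CPM under vehicle. It was lower in both SGC-CBP30 libraries than in either vehicle library, by 0.38 ± 0.08 on the log2 scale (edgeR log2 fold change -0.38, adjusted p = 0.00068).

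Hsp90b1 encodes GRP94, the HSP90 of the ER lumen (chromosome 10, 86690209 to 86705509, minus strand). It had 228 and 245 CPM in SGC-CBP30 libraries, against 285 and 286 CPM in vehicle libraries (log2 fold change -0.28 ± 0.061, edgeR adjusted p = 0.00123). Exons of Hsp90b1 share 415 bases with an opposite-strand gene of 97 counts over the 4 libraries. They share 84 and 133 bases with same-strand genes of 73 and 0 counts, against 17777 counts for Hsp90b1. Hyou1, an HSP110 relative that exchanges nucleotide on BiP (chromosome 9, 44379490 to 44392369, plus strand), had 140 and 135 CPM in SGC-CBP30 libraries, against 159 and 160 CPM in vehicle libraries (-0.21 ± 0.065, adjusted p = 0.0171). Both genes were lower in each SGC-CBP30 library than in either vehicle library, but neither kept its call in every fit. Without vehicle replicate 2 the adjusted p of Hsp90b1 was 0.0593 (range over the alternatives 5.21e-09 to 0.0593). Hyou1 lost its call without vehicle replicate 1 (0.182), on the scale of library totals (0.114) and without vehicle replicate 2 (0.218), in a range of 0.000974 to 0.218.

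BiP itself was not among the called genes. Hspa5 had 545 and 539 CPM in SGC-CBP30 libraries, against 583 and 582 CPM in vehicle libraries (log2 fold change -0.10 ± 0.056, edgeR adjusted p = 0.178). Its groups did not overlap, and without SGC-CBP30 replicate 1 it passed the threshold as lower (log2 fold change -0.12, adjusted p = 0.0294, in a range of 0.0294 to 0.715). Per base, Hspa5 stood 6.50 and 5.99 times above Dnajb9 in SGC-CBP30 libraries, against 5.28 and 5.0 times in vehicle libraries. The disulfide isomerase Pdia4 had 89.6 and 85.3 CPM under SGC-CBP30, against 80.9 and 73.0 CPM under vehicle (0.18 ± 0.077, adjusted p = 0.0763), and passed the threshold as higher without SGC-CBP30 replicate 2 (0.0146, in a range of 0.0128 to 0.572). The other 6 did not pass the threshold in the main fit or in any alternative: the BiP partners Dnajb11 (log2 fold change -0.057), Dnajc3 (-0.093) and Sdf2l1 (-0.15), the disulfide isomerases Pdia3 (-0.0066) and Pdia6 (-0.069), and Creld2 (0.017). Signs this close to 0 turn with the scaling: with library totals Dnajb11, Pdia3 and Pdia6 were positive. Summed over the branch, chaperones and folding enzymes had 2860 and 2790 CPM in SGC-CBP30 libraries, against 3040 and 3020 CPM in vehicle libraries.

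**Figure D3:**
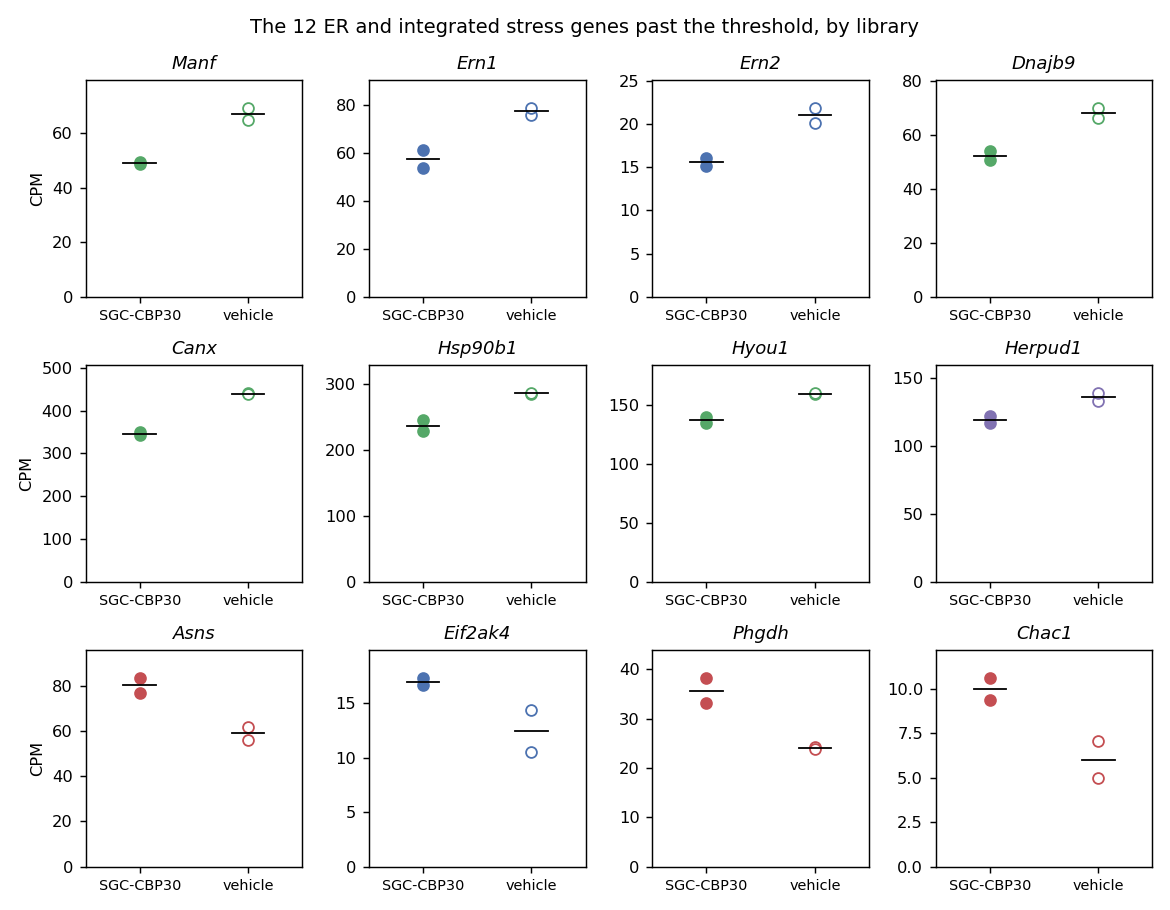
CPM of the 12 genes past the threshold in each library, SGC-CBP30 left and vehicle right in each panel. The groups do not overlap in any of the 12 panels, and the vehicle replicates of Eif2ak4 and Chac1 lie farther apart than those of Canx or Hsp90b1.

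ER chaperone genes are known for the ER stress element (ERSE) near their start sites, the letters CCAAT and CCACG with 9 letters of any kind between them, where NF-Y binds the first part and ATF6 or XBP1 the other. Promoters of 29 of the 34 genes were matched in RefSeq (GRCm38.p6) and the 250 letters before each RefSeq start site, which can differ from the start in the deposited table, were searched on both strands. Hyou1, Manf, Ern2, Atf6 and Derl1 were not among the 29. The element was found in 9 of the 29 (31.0%), against 0.113% of 32851 mouse promoter windows. The genes are known members of this response partly through such elements, so that share is a description. The elements of the 7 chaperone genes that hold one are printed here, for genes which fell and genes which did not. They are given 5′ to 3′ on the element's own strand, with the fixed letters in capitals. Those letters are the same in all because the search required them.
Hsp90b1, farther from the start: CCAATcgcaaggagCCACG
Hsp90b1, nearer the start: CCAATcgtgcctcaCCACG
Canx: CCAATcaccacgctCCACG
Hspa5: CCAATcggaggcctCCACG
Calr: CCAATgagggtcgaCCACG
Pdia6: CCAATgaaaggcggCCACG
Dnajc3: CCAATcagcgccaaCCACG
Creld2: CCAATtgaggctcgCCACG

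Of these 7 genes, Hsp90b1 and Canx fell and the other 5 did not pass the threshold, with log2 fold changes between -0.10 for Hspa5 and 0.12 for Calr. Of the other 3 chaperone genes that fell, Dnajb9 held no match in its window, which says only that these letters are not in it, and Hyou1 and Manf were not searched. The Dnajb9 window (chromosome 12, 44210069 to 44210318, minus strand) lies wholly inside the gene span of the deposited table. Letters before the deposited start of Dnajb9 were therefore not searched. Measured from the RefSeq start at 34772090, the Hspa5 element lies upstream, but it lies inside the gene span of the deposited table. The other genes with the element were Derl3 and Syvn1 of ER-associated degradation, neither of which was called. The promoters of the chaperone genes that fell and hold the element are given as context, with the fixed letters in capitals on either strand (an element on the opposite strand reads CGTGG, 9 letters, ATTGG).
Hsp90b1 promoter, GRCm38.p6 chr10:86705510-86705694, minus strand: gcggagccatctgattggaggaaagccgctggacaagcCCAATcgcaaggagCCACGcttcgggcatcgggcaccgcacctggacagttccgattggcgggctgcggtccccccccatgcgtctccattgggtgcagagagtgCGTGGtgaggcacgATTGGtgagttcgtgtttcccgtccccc
Canx promoter, GRCm38.p6 chr11:50325674-50325923, minus strand: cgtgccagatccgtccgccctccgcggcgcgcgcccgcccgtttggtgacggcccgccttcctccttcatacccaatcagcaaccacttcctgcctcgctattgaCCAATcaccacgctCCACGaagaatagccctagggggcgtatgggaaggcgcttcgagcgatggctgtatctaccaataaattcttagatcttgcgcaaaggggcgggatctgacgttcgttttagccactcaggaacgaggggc
The pair of elements in the Hsp90b1 window lie on opposite strands, and the single Canx element lies on the strand of the gene.

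ER-associated degradation moves misfolded proteins out of the ER to the proteasome. Its 6 genes showed the fewest calls (16.7%, against 30.0% of all tested genes). Herpud1, a membrane protein that recruits the ubiquitin ligase complex (chromosome 8, 94386438 to 94395377, plus strand), had 122 and 117 CPM in SGC-CBP30 libraries, against 133 and 139 CPM in vehicle libraries (log2 fold change -0.19 ± 0.068, edgeR adjusted p = 0.0366). Its groups did not overlap, but the call was lost without vehicle replicate 1 (0.159), without vehicle replicate 2 (0.399), on the scale of library totals (0.195), under DESeq2 (0.0839) and with no filter on low counts (0.0715). The adjusted p ranged over the alternatives from 0.00415 to 0.399. The ubiquitin ligase Syvn1 (HRD1), its partner Sel1l, the mannosidase-like Edem1 and the channel protein Derl1 had log2 fold changes between -0.066 (Edem1) and 0.058 (Derl1), none past the threshold. With library totals the sign of Edem1 turned positive. Derl3 had 1.12 and 1.99 CPM under SGC-CBP30, against 2.04 and 1.00 CPM under vehicle (0.023 ± 0.45), and with 106 counts in all a difference was not detectable at this depth. Summed over the branch, these genes had 720 and 722 CPM in SGC-CBP30 libraries, against 714 and 754 CPM in vehicle libraries, which overlap.

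The Herpud1 promoter is printed because it was the only window of the 29 with elements of both classes, the compact ER stress element ERSE-II (ATTGG, 1 letter of any kind, CCACG) and the C/EBP-ATF response element that ATF4 binds (TGATGNAA). ERSE-II was found in 0.0304% and the ATF response element in 3.45% of all windows. The fixed letters of both are in capitals, the ATF response element lying on the opposite strand (TTgCATCA) and ERSE-II on the strand of the gene.
Herpud1 promoter, GRCm38.p6 chr8:94386179-94386428, plus strand: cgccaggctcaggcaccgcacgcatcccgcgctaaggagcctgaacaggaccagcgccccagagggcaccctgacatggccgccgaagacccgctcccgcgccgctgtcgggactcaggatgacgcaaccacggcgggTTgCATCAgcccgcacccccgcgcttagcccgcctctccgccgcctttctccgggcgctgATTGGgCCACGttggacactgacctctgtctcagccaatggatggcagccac

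In the ATF4 branch, 3 of 8 genes rose (37.5%, against 13.6% of all tested genes) and none fell by edgeR, with none lower at an unadjusted p under 0.05 and none lower by DESeq2. The median log2 fold change of the 8 was 0.37, against 0.0096 over all tested genes, and 7 of the 8 were positive. Atf4 itself was not called, with 226 and 203 CPM in SGC-CBP30 libraries, against 214 and 223 CPM in vehicle libraries. Its groups overlapped, and its log2 fold change of -0.025 ± 0.065 (edgeR adjusted p = 0.822) was positive with library totals as the scale (0.048). Summed over the branch, these 8 genes had 449 and 419 CPM under SGC-CBP30, against 390 and 395 CPM under vehicle.

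Chac1, an enzyme that degrades glutathione and a target of the ATF4 pathway (chromosome 2, 119351229 to 119354381, plus strand), had the highest fold of the 34 genes. It had 10.6 and 9.40 CPM in SGC-CBP30 libraries, against 4.98 and 7.08 CPM in vehicle libraries, a 1.66-fold rise (log2 fold change 0.73 ± 0.20, edgeR adjusted p = 0.00681). Without vehicle replicate 1, the lower of the vehicle libraries, the log2 fold change was 0.50 and the call was lost (adjusted p = 0.124, in a range over the alternatives of 0.000591 to 0.124). Phgdh, which commits glycolytic carbon to serine synthesis (chromosome 3, 98313170 to 98339990, minus strand), had 33.2 and 38.2 CPM in SGC-CBP30 libraries, against 24.2 and 23.9 CPM in vehicle libraries. It rose 1.48-fold (log2 fold change 0.57 ± 0.11, adjusted p = 0.000253), and both SGC-CBP30 libraries lay above both vehicle libraries.

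Asns, the asparagine synthetase (chromosome 6, 7675169 to 7693254, minus strand), had 83.2 and 76.9 CPM in SGC-CBP30 libraries, against 61.9 and 56.0 CPM in vehicle libraries. It rose 1.36-fold (log2 fold change 0.44 ± 0.08, edgeR adjusted p = 0.000151). Per base, the ratio of Asns to the chaperone Hspa5 was 0.236 and 0.221 in SGC-CBP30 libraries, against 0.164 and 0.149 in vehicle libraries. Asns was higher and Hspa5 lower without overlap, so this ratio could not overlap and adds nothing to the values of each gene. Psat1, which follows Phgdh in serine synthesis, was not called: it had 42.8 and 47.3 CPM under SGC-CBP30, against 43.3 and 42.2 CPM under vehicle (0.076 ± 0.091, adjusted p = 0.588), and its groups overlapped.

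The genes of the branch that act in cell death and in recovery did not pass the threshold. Ddit3, the transcription factor CHOP, had 17.5 and 14.9 CPM in SGC-CBP30 libraries, against 11.3 and 14.2 CPM in vehicle libraries (log2 fold change 0.35 ± 0.15, edgeR adjusted p = 0.0798). It passed the threshold as higher without vehicle replicate 2 (0.52, adjusted p = 0.0306), on the scale of library totals and without SGC-CBP30 replicate 2 (0.0262), in a range of 0.0262 to 0.514. Its exons overlap those of Mars on the opposite strand by 68 bases. Ppp1r15a (GADD34), the phosphatase subunit that reverses eIF2 phosphorylation, had 9.88 and 9.80 CPM under SGC-CBP30, against 7.70 and 7.21 CPM under vehicle, groups that do not overlap (0.40 ± 0.18, adjusted p = 0.0938). With library totals as the scale Ppp1r15a passed the threshold (range over the alternatives 0.0437 to 0.296). Trib3, a pseudokinase induced with CHOP, had 26.2 and 19.0 CPM under SGC-CBP30, against 22.4 and 21.2 CPM under vehicle, which overlap (0.049 ± 0.13, adjusted p = 0.83).

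The ATF response element was found in 2 of the 8 promoters of this branch, those of Asns and Chac1, which both rose. Herpud1 of ER-associated degradation also holds it and fell, and 3.45% of all windows hold it. The called Phgdh and the 5 genes not called held no match in their windows. The Psat1 windows lie wholly inside the gene span of the deposited table, so letters before its deposited start were not searched. The Chac1 window and 28 letters around the Asns element are printed with the fixed letters in capitals. In Chac1 the element lies on the opposite strand (TTgCATCA), its nearest letter 186 letters before the RefSeq start at 119351242, which is inside the deposited gene span. In Asns it lies on the strand of the gene, its nearest letter 16 letters before the RefSeq start at 7693209. The deposited Asns span begins farther upstream, so the element lies inside that span.
Chac1 promoter, GRCm38.p6 chr2:119350992-119351228, plus strand: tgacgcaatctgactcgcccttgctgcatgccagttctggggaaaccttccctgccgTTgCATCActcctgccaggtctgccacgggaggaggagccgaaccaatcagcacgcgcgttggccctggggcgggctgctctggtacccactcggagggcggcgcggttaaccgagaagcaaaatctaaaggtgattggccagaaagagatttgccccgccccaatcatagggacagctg
Asns element, GRCm38.p6 chr6:7693215-7693242, minus strand: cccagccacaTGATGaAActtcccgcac
The core of the XBP1-bound element (TGACGTGG), present in 0.563% of all windows, was found in none of the 29, and 17 of the 29 held no match to any of the 4 motifs. No match of one motif overlapped a match of another.

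Other genes of the same processes gave a mixed picture. Of 43 other ATF4 target and integrated stress genes tested, 12 rose and 11 fell, 53.5% in all, against 30.0% of all tested genes, with a median log2 fold change of 0.039. Cth, which makes cysteine from cystathionine, fell most clearly, with 72.2 and 61.8 CPM in SGC-CBP30 libraries, against 151 and 151 CPM in vehicle libraries (-1.18 ± 0.077, edgeR adjusted p = 8.67e-12). Slc7a11 and Slc3a2, the subunits of the cystine importer, also fell, with log2 fold changes of -0.93 ± 0.13 (adjusted p = 4.25e-06) and -0.46 ± 0.067 (adjusted p = 7.24e-06). Vldlr, a lipoprotein receptor, rose with 54.8 and 59.8 CPM under SGC-CBP30, against 30.7 and 30.1 CPM under vehicle (0.91 ± 0.092, adjusted p = 2.23e-08). ATF4 target genes outside the 8 thus lay in both directions, with 5 to 11 higher and 8 to 11 lower calls in the fits that left out 1 library, the lowest count of higher calls being without vehicle replicate 1 and the next, 7, without vehicle replicate 2.

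Among 23 tested other genes of ER-associated degradation, 6 rose and 1 fell (30.4%, near the 30.0% of all tested genes), and the median log2 fold change was 0.095. Vcp, the ATPase that pulls substrates from the ER membrane, had 424 and 429 CPM in SGC-CBP30 libraries, against 321 and 300 CPM in vehicle libraries (0.46 ± 0.059, edgeR adjusted p = 1.38e-06). Its cofactor Nploc4 (0.36 ± 0.068) and the N-glycanase Ngly1 (0.35 ± 0.084) rose too. Vcp, Nploc4 and Ngly1 act on the cytosolic side, after a substrate leaves the ER. The number of higher calls was 4 without either vehicle library and 9 without SGC-CBP30 replicate 2.

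The 42 other ER folding and translocation genes held 4 that rose and 6 that fell (23.8%, against 30.0% of all tested genes). With library totals as the scale, 6 rose and 3 fell. On that scale 26 of the 42 had a positive log2 fold change, against 15 on the TMM scale, so the balance of directions depended on the scaling. Spcs2, a signal peptidase subunit, had 116 and 113 CPM in SGC-CBP30 libraries, against 169 and 168 CPM in vehicle libraries (-0.56 ± 0.066, edgeR adjusted p = 3.43e-07). The ER oxidase Ero1lb fell by 0.48 ± 0.10 on the log2 scale and the J protein Dnajc1 rose by 0.47 ± 0.11. P4hb, the most abundant disulfide isomerase named here, had a log2 fold change of -0.24 ± 0.059 (adjusted p = 0.00242), a call lost without vehicle replicate 1 (0.0582, in a range of 4.05e-21 to 0.0582). Without 1 library, higher calls numbered 1 (without vehicle replicate 2) to 6 (without SGC-CBP30 replicate 2), and lower calls 2 and 3 (without vehicle replicates 1 and 2) to 9 (without SGC-CBP30 replicate 1).

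Among 15 tested other ER stress sensors and processing factors, 2 rose and 2 fell (26.7%, near the 30.0% of all tested genes). Wfs1, an ER membrane protein that restrains ATF6, had 29.7 and 29.6 CPM in SGC-CBP30 libraries, against 71.8 and 67.1 CPM in vehicle libraries (-1.23 ± 0.088, edgeR adjusted p = 4.86e-11). Creb3l2, a membrane-bound transcription factor of the ATF6 kind, fell by 0.49 ± 0.076 on the log2 scale. Its relatives Creb3 (0.27 ± 0.085, adjusted p = 0.0191) and Atf6b (0.26 ± 0.094, adjusted p = 0.042) rose, but both lost the call under DESeq2 (0.0794 and 0.14), without vehicle replicate 1 (0.195 and 0.199) and without vehicle replicate 2 (0.0848 and 0.174). Atf6b also lost it without SGC-CBP30 replicate 1 (0.0905), and the adjusted p ranged over the alternatives from 0.00321 to 0.195 for Creb3 and from 0.00889 to 0.199 for Atf6b.

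Chaperones of other compartments were set beside those of the ER. Of 18 tested heat shock genes that encode chaperones outside the ER, 7 rose and 2 fell, or 9 of 18, where 30.0% of all tested genes were called, and the median log2 fold change was 0.073. Most encode cytosolic proteins, but Hspd1 and Hspe1 encode mitochondrial chaperonins, and Hspd1 was one of the 2 that fell (-0.28 ± 0.061, edgeR adjusted p = 0.00109). That call was lost without vehicle replicate 1 (0.0503, in a range of 3.6e-11 to 0.0503). The co-chaperone Stip1 rose by 0.44 ± 0.073 and the HSP110 relative Hspa4l by 0.51 ± 0.093 on the log2 scale. The inducible HSP70 gene Hspa1b had 21.4 and 16.9 CPM in SGC-CBP30 libraries, against 11.3 and 11.9 CPM in vehicle libraries (0.72 ± 0.14, edgeR adjusted p = 0.000416). Its near-identical copy Hspa1a had 3.0 and 3.42 CPM under SGC-CBP30, against 1.19 and 0.376 CPM under vehicle, and the counting could split reads between the copies, so either value is uncertain. Lower calls among heat shock genes numbered 0 without vehicle replicate 1, and higher calls 4 without vehicle replicate 2.

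Of 10 other mitochondrial folding genes, 2 fell and none rose by edgeR (20.0% called, against 30.0% of all tested genes). In this list 1 gene was higher at an unadjusted p under 0.05 and none was higher by DESeq2. Hspa9, the mitochondrial HSP70, had 364 and 361 CPM in SGC-CBP30 libraries, against 463 and 467 CPM in vehicle libraries (-0.36 ± 0.057, edgeR adjusted p = 2.74e-05). The protease subunit Clpx fell by 0.34 ± 0.079 on the log2 scale (adjusted p = 0.00176), a call lost without vehicle replicate 2 (0.0963, in a range of 1e-05 to 0.0963). The lower calls were then 1, and without SGC-CBP30 replicate 1 they were 3.

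**Figure D4:**
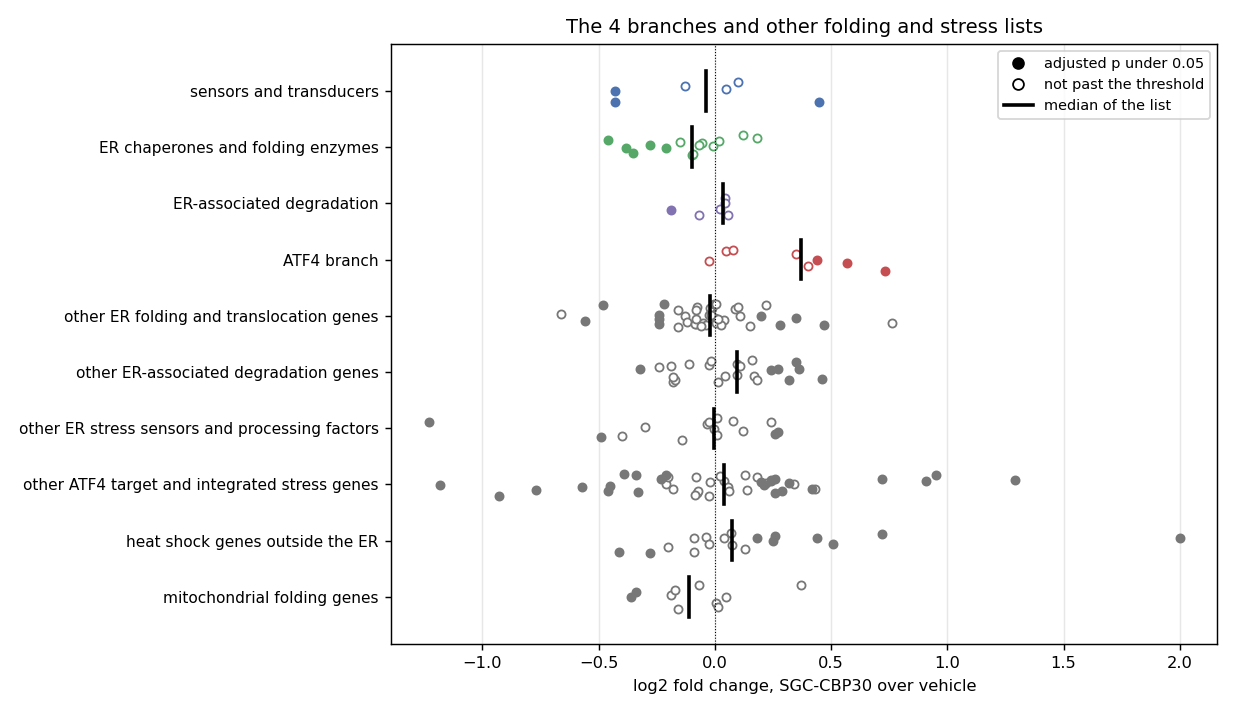
Log2 fold change, SGC-CBP30 to vehicle, for every tested gene of the 4 branches and of the 6 other folding and stress lists; points are genes, filled where the edgeR adjusted p is under 0.05. The lists other than the ER chaperones, the ATF4 branch and the mitochondrial genes hold filled points on both sides of 0 or a single filled point.

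The unfolded protein response is most active in secretory cells, so cell type markers are given beside these values. The 15 Paneth cell markers tested held 6 that fell (40.0% called, against 30.0% of all tested genes) and a median log2 fold change of -0.17. They summed to 4410 and 4060 CPM in SGC-CBP30 libraries, against 5000 and 4900 CPM in vehicle libraries. Lyz1, their lysozyme, had a log2 fold change of -0.38 ± 0.055 and the antimicrobial ribonuclease Ang4 one of -0.43 ± 0.063, while the related Ang5 is listed at 0. The 17 goblet cell markers held 1 higher and 5 lower gene calls (35.3% called, median -0.17). These markers summed to 4980 and 5020 CPM under SGC-CBP30, against 4970 and 4840 CPM under vehicle. Within that list the chemokines Ccl6 (-2.30 ± 0.15) and Ccl9 (-2.69 ± 0.23) had the smallest p. The 1 higher call was Muc2, the main intestinal mucin (0.24 ± 0.067, edgeR adjusted p = 0.00822), and it was lost without vehicle replicate 1 (0.0728) or 2 (0.114, in a range of 7.12e-14 to 0.114). Without SGC-CBP30 replicate 1 the Paneth list held 9 lower calls, and without vehicle replicate 1 it held 4; the goblet list held 7 lower calls without SGC-CBP30 replicate 1 and 3 without either vehicle library. The part of Paneth and goblet cells in the lower chaperone genes and in Ern2 was not tested.

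Enterocyte markers moved more, with 14 of 20 lower and 2 higher (80.0% called, against 30.0% of all tested genes). They summed to 42200 and 40700 CPM in SGC-CBP30 libraries, against 54400 and 54700 CPM in vehicle libraries. Their brush border enzymes Treh and Enpep had log2 fold changes of -1.21 ± 0.064 and -1.06 ± 0.057. Of 11 crypt base stem cell markers, 2 rose (Lgr5 among them, 0.56 ± 0.095) and 3 fell (Olfm4 among them, -1.79 ± 0.076), 45.5% in all. Their sums were 700 and 773 CPM under SGC-CBP30, against 867 and 843 CPM under vehicle. Olfm4 alone had 54.5 and 56.6 CPM under SGC-CBP30, against 205 and 179 CPM under vehicle. Of the 11 markers 7 had a positive log2 fold change, with a median of 0.028, so the lower sum does not describe the list as a whole. Of the stem cell markers 1 rose without vehicle replicate 1, and 2 fell without vehicle replicate 2. Of 10 pan-epithelial markers 3 rose and 2 fell. The keratins Krt18 (0.59 ± 0.059) and Krt8 (0.49 ± 0.057) were among the higher ones, and the intestinal transcription factors Cdx1 (-0.46 ± 0.085, edgeR adjusted p = 0.000161) and Cdx2 (-0.21 ± 0.072, adjusted p = 0.0295) were the lower ones. Cdx2 lost its call with library totals as the scale (0.147), under DESeq2 (0.0723) and without vehicle replicate 1 (0.222), vehicle replicate 2 (0.17) or SGC-CBP30 replicate 2 (0.203), in a range of 3.78e-06 to 0.222. Without SGC-CBP30 replicate 2 the list held 8 higher calls. These markers summed to 10300 and 9560 CPM under SGC-CBP30, against 8270 and 8340 CPM under vehicle. The labelled intestinal epithelium thus had its markers at high level in every library, and the part of these cell types in the values of the 34 genes was not tested.

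Rarer epithelial types and other cells had lower sums. The 16 enteroendocrine markers, with 2 higher and 4 lower (37.5% called, against 30.0% of all tested genes), summed to 763 and 670 CPM in SGC-CBP30 libraries, against 729 and 695 CPM in vehicle libraries. Gcg (-0.74 ± 0.11) and Scg2 (-0.85 ± 0.14) were among the lower ones. The higher ones were Neurog3, the transcription factor of endocrine progenitors (1.49 ± 0.32, edgeR adjusted p = 0.000852), and Tph1, the serotonin synthesis enzyme (0.38 ± 0.10, adjusted p = 0.0066), whose call was lost without vehicle replicate 2 (0.108, in a range of 0.00155 to 0.108). Of the tuft cell markers 9 of 12 were tested and 2 fell (Plcg2, -0.71 ± 0.13, and Trpm5, -0.72 ± 0.15), or 22.2% called. They summed to 51.6 and 51.0 CPM under SGC-CBP30, against 67.2 and 70.4 CPM under vehicle. Of the fibroblast markers 2 of 10 were tested, with sums of 13.5 and 11.0 CPM under SGC-CBP30, against 17.1 and 17.8 CPM under vehicle, mostly from Vim (-0.75 ± 0.15), and Lum is listed at 0. Immune markers, 3 of 10 tested, summed to 4.06 and 3.87 CPM under SGC-CBP30, against 7.98 and 5.95 CPM under vehicle, with Csf1r at -1.95 ± 0.43. The single tested endothelial marker of 6 was not called, and the list summed to 2.29 and 1.94 CPM under SGC-CBP30, against 2.32 and 2.44 CPM under vehicle.

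In the authors' deposited table, whose test is not named, 11.4% of 23932 genes with an adjusted p were under 0.05, a larger set of genes than the 14684 tested here. Of the 34 genes, 8 had an adjusted p under 0.05 in the authors' deposited table: Ern1, Hsp90b1, Hyou1, Canx, Dnajb9, Manf, Asns and Phgdh. All 8 were also called here. The remaining 4 calls were above the threshold in the authors' deposited table, with adjusted p of 0.0633 for Chac1, 0.0983 for Ern2, 0.111 for Herpud1 and 0.159 for Eif2ak4. For these 4 genes the log2 fold changes in the authors' deposited table were 0.73 (Chac1), -0.425 (Ern2), -0.189 (Herpud1) and 0.45 (Eif2ak4).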

How the data were processed

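The 4 libraries were sequenced as RNA-seq (NEBNext kit, per the labels' protocols). All values came from 1 deposited table. Per the file headers, the authors gave a whole-number count per gene and library, not normalized, and FPKM, which are per gene length and library total. The deposited gene length is the other value used. Group means, which the authors deposited as a signal on the scale of normalized counts, were not used for results. Their log2 fold change and their p-value and adjusted p-value are deposited with no test named. Named in the submitters' processing notes, with no roles, are featureCounts 1.5.0-p3, HISAT2 2.0.5 and StringTie 1.3.3b, and the build mm9. The gene coordinates, however, equal those of GENCODE M21 (GRCm38) for 98.5% of 51477 shared identifiers and for all 34 genes, so GRCm38 is named. The sources used here do not give strand use or the handling of multi-mapping reads. The table was held in part: its last line is incomplete. It lists 51509 genes, 26144 with a count. Another row named Ddit3, with no counts, was not used, and 27 symbols stored as dates were restored by identifier.

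The counts went into edgeR 4.0.16 under R 4.3.3, with TMM scaling, filterByExpr by group, robust dispersions, a quasi-likelihood F test between SGC-CBP30 and vehicle without covariates, and Benjamini-Hochberg adjustment over all 14684 genes tested, called under 0.05. SE is the size of the log2 fold change over the square root of F. CPM carry the TMM factors (1.02 and 1.03 for SGC-CBP30, 0.978 and 0.972 for vehicle). Sums over a list are of CPM, and per-base ratios are of counts per gene length. Replicates differed by more than counting noise (chi-square per degree of freedom 6.22 for SGC-CBP30 and 2.97 for vehicle), and correlations (Pearson, log2 CPM) over genes, not independent replicates, were 0.989 and 0.990 within groups and 0.971 to 0.973 between groups.

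The 34 genes, their branches and all other lists were chosen with earlier results of these data known, so no list was tested. Named genes are all 34, the 4 called genes of smallest p with non-overlapping groups in each wider list, the 2 of smallest p in each marker list, and Crebbp and Ep300; Ang5, Lum, Hspd1, Hspe1, Muc2, Neurog3, Tph1, Cdx1 and Cdx2 were named after their values were seen. Some genes that this rule names are not reported here. Alternatives were library totals or relative log expression as the scale, DESeq2 1.42.0, no filter, at least 50 counts in 2 libraries, no robust estimation, a replicate block, and leaving out each library. Promoters are from RefSeq (GRCm38.p6); 29 of 34 genes matched by symbol.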

Additional observations from a re-analysis of the deposited data

How the results depend on the processing

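With library totals as the scale, 8 of the 34 genes were called higher, the ATF4 branch held 5 calls and ER-associated degradation 0; the median log2 fold change over all genes was then 0.083, against 0.0096. DESeq2 called 1244 of all genes higher, 1 sensor and 0 genes of ER-associated degradation, and with no filter on low counts the degradation list again held 0. Leaving out 1 library in turn gave 1235 to 2104 genes higher and 1664 to 2453 lower over all genes; 2 to 7 higher and 5 to 9 lower of the 34; 1 to 4 sensors, 3 to 7 chaperones, 0 to 1 degradation genes and 2 to 4 ATF4 branch genes called; 33 to 63 calls in the wider lists and 41 to 60 in the marker lists. Signs that turned belonged to genes not called: with library totals Dnajb11 (0.016), Pdia3 (0.066), Pdia6 (0.0038), Edem1 (0.0074) and Atf4 (0.048), and with no filter Pdia3 (0.006). Leaving out 1 library, log2 fold changes ran over both signs for Sdf2l1 (-0.35 to 0.03), Pdia3 (-0.038 to 0.023), Creld2 (-0.13 to 0.15), Sel1l (-0.0095 to 0.093), Edem1 (-0.13 to 0.0073), Derl1 (-0.019 to 0.13), Derl3 (-0.45 to 0.63), Atf4 (-0.11 to 0.05) and Trib3 (-0.2 to 0.26). The cause of these moves was not tested. Relative log expression factors, the stricter filter and no robust estimation each kept the same 12 calls, and the stricter filter left 33 of the 34 tested. The replicate number as a block also kept all 12 (4 higher, 8 lower). Over all genes the block gave 2189 higher and 2514 lower calls, against 2004 and 2397 without it. Deviations of same-numbered libraries were not correlated over genes (correlation -0.0244). That value cannot show whether same-numbered libraries share a culture or a batch, which was not tested. Depth limits Derl3.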
